A study of Mus musculus with 7 samples.

Results

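The 35 genes described here carry glucose into the cell, split it to pyruvate and lactate, or store it as glycogen, and the transcription factor gene Hif1a was counted with them. They were taken by gene symbol from the 55341 gene names of the count table and sorted by pathway step, with 3 glucose transporters, 3 hexokinases, 7 genes of upper glycolysis, 2 regulators of the phosphofructokinase step, 5 genes of lower glycolysis, 4 of lactate, 3 pyruvate dehydrogenase kinases, 7 of glycogen and Hif1a. All 35 passed the filter on low counts. The list was chosen by pathway role with the fold changes and p-values inside against outside the graft already in view, so the counts of genes below describe these libraries and do not test the pathway.

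Microglia, the resident macrophages of the brain, were sorted as CD11b+CD45low cells from wild-type (WT) embryonic cortical grafts and from pieces of host cortex close by. Every host was a 5xFAD mouse on C57BL/6, aged 14 weeks and taken 4 weeks after the injection, and 5xFAD mice carry human transgenes with mutations of familial Alzheimer's disease under the neuronal Thy1 promoter. Both groups share the genotype, the surgery and the sort, and differ in the compartment, with 3 libraries from inside the graft (inside 1 to 3) and 4 from outside it (outside 1 to 4). The labels do not say whether each library was a separate mouse, so p-values measure only the spread between these libraries, which may be technical.

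In glycolysis, glucose enters through carriers of the Slc2a family, is trapped by hexokinases, is committed at phosphofructokinase and is split to pyruvate, which lactate dehydrogenase can turn into lactate for export. Pyruvate dehydrogenase kinases hold pyruvate back from the mitochondria, and glycogen phosphorylase releases stored glucose units that join the same route. Hif1a encodes the oxygen-regulated subunit of the factor HIF-1, which is known to bind near many of these genes, and activated macrophages are known to raise glycolysis.

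Each library held between 18644807 and 25882122 counted reads, with a median of 23735347 inside and 23327869 outside the graft. Levels are given as CPM, the read counts scaled to a common library size by TMM. TPM is used where genes are compared with each other or summed. It divides by the exon length given with the counts, scales to each library's own total and has no TMM factor. The 10 microglia markers summed to between 47441 and 55107 CPM inside and between 54368 and 60334 CPM outside the graft, and all 10 had a log2 fold change below 0, 5 of them at an unadjusted edgeR p under 0.05. The smallest total and quality weight (0.448) belonged to outside 1, and markers of other myeloid cells and of proliferation were higher inside the graft, as described beside the genes below.

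Of the 35 genes, 26 were higher inside the graft by the sign of their log2 fold change and 9 were lower, and their median was 0.33 beside -0.0064 over the 15257 genes tested, of which 49.2% were above 0. The glycogen phosphorylase gene Pygl rose inside the graft by the quasi-likelihood test of edgeR, with p-values adjusted over all genes by the Benjamini-Hochberg method and a threshold of 0.05, where 0.0983% of all genes tested were called. By limma's voomWithQualityWeights, the test used in the study, 4 genes were called, namely Pygl, Gpi1, Hif1a and Pkm, all higher inside the graft, where 0.492% of all genes were called, 0.433% higher and 0.059% lower. At the threshold of 0.01 used in the study, voomWithQualityWeights called 0 of the 35 and 3 genes in all (0.0197%). At an unadjusted edgeR p under 0.05 there were 12 genes (34.3%), 11 of them higher and Slc2a5 lower inside the graft, where 9.55% of all genes passed, 5.76% higher and 3.79% lower. By voomWithQualityWeights 15 had an unadjusted p under 0.05, 13 higher and 2 lower, where 12.2% of all genes passed, 7.47% higher and 4.71% lower. All inside libraries lay above all outside libraries in CPM for 7 genes and below them for Pdk2, an order found for 5.65% and 5.02% of all genes (10.7% together). These shares of the 35 rest on the contrast that was known when the genes were listed. As the RNA was from bulk cells, more cells of a kind and more RNA per cell cannot be told apart in any of these values.

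**Figure D1:**
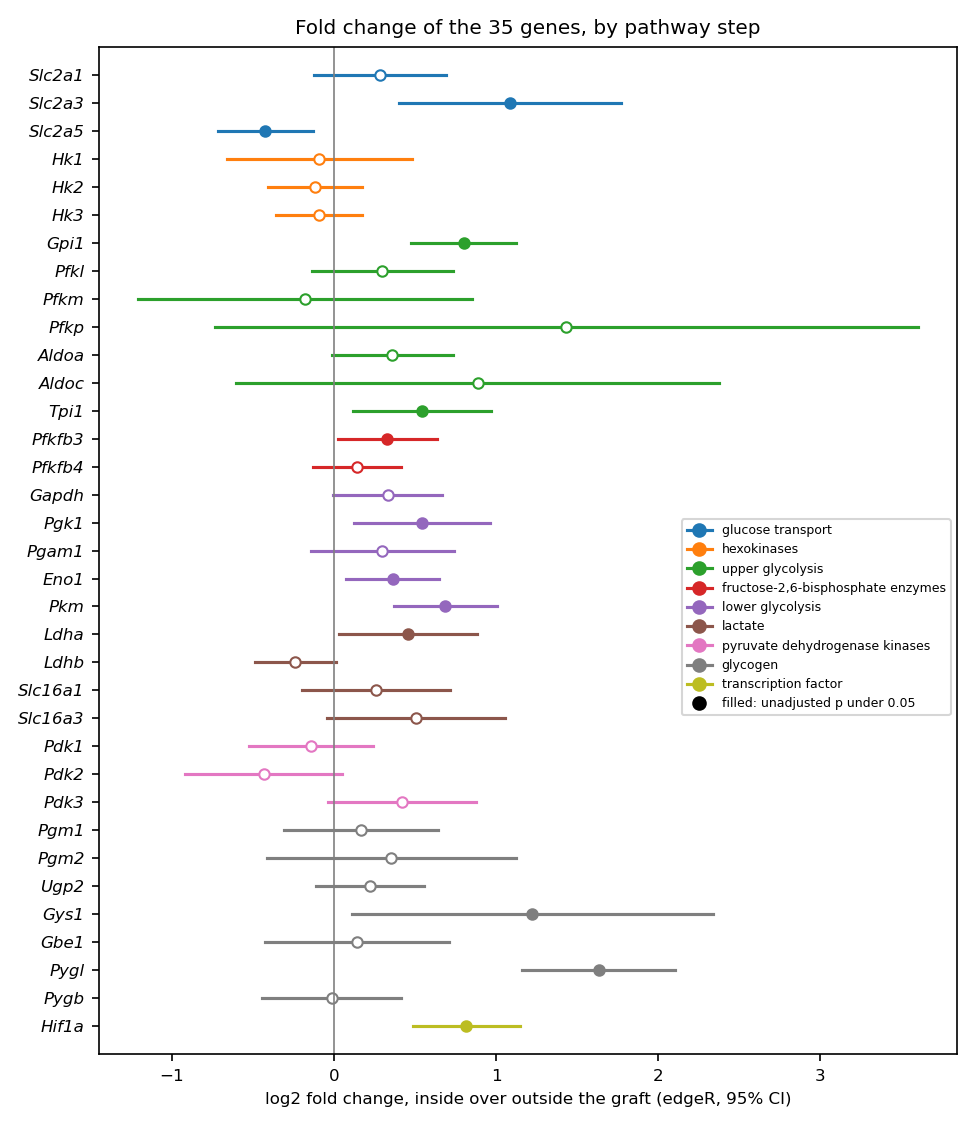
Log2 fold change of each of the 35 genes, inside over outside the graft, from edgeR (horizontal axis), with genes in pathway order from top to bottom and coloured by step. Points are estimates, bars are 95% confidence intervals, and filled points have an unadjusted p under 0.05. Pygl has the highest estimate (1.63), the 3 hexokinases lie close to 0, and Slc2a5 is the only filled point below 0.

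Pygl, the liver-type glycogen phosphorylase, had the highest fold change of the 35. The gene (ENSMUSG00000021069.17) lies on the minus strand of chr12 from 70190811 to 70231488 on GRCm38.p6. Its levels were 15.3, 17.1, 18.3 and 22.0 CPM in outside 1 to 4 and 65.6, 39.7 and 64.0 CPM in inside 1 to 3. The groups were far apart, and the lowest inside library, inside 2, still lay above every outside library. The log2 fold change was 1.63 (SE 0.21, 95% interval 1.16 to 2.11), a 3.10-fold higher level inside the graft, and the adjusted p was 0.0357 in edgeR and 0.0195 in voomWithQualityWeights. Leaving out 1 library at a time gave log2 fold changes of 1.52 to 1.83, while the adjusted p in edgeR was above 0.05 without outside 2 (0.0628), outside 3 (0.0701), outside 4 (0.0786), inside 1 (0.091) or inside 3 (0.126), and that in voomWithQualityWeights was above 0.05 without outside 3 (0.152) or outside 4 (0.104).

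Other glycogen genes of the list were less separated. Gys1, the muscle-type glycogen synthase, which builds the chain that phosphorylase takes apart, had 2.40, 14.4, 14.6 and 16.8 CPM outside and 27.9, 20.3 and 36.5 CPM inside the graft. All inside libraries were above all outside libraries, and outside 1 was far below the other outside libraries. Gys1 had a log2 fold change of 1.22 (SE 0.50, adjusted p = 0.459), or 0.89 without outside 1. Ugp2, which makes the UDP-glucose that the synthase uses, was the glycogen gene with the highest TPM outside the graft (54.8 ± 4.72, SD, n = 4), with 60.1, 48.6, 51.6 and 53.1 CPM outside and 56.4, 56.4 and 74.1 CPM inside (log2 fold change 0.22, adjusted p = 0.721). Only inside 3 lay above the outside range. The phosphoglucomutase gene Pgm1 links glycogen to glucose 6-phosphate, and Pgm2 is of the same family. The branching enzyme gene Gbe1, Pgm1 and Pgm2 had log2 fold changes of 0.14, 0.16 and 0.35, with overlapping groups. Pygb, the brain-type phosphorylase, had 51.2, 48.2, 60.0 and 82.5 CPM outside and 60.9, 65.2 and 53.6 CPM inside, all of the inside values within the outside range (log2 fold change -0.01, interval from -0.44 to 0.41). Of the pair of phosphorylases, Pygl made up 17.2%, 19.9%, 17.5% and 15.7% of the joint TPM outside and 42.9%, 29.8% and 45.4% inside the graft.

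The promoters of Pygl, Gpi1 and Hif1a are printed because these genes had the smallest p-values of the list. They are the 250 bases before the RefSeq start on GRCm38.p6, read 5′ to 3′ on the strand of the gene. The positions are chr12:70227684-70227933 (minus strand, Pygl), chr7:34230337-34230586 (minus strand, Gpi1) and chr12:73907617-73907866 (plus strand, Hif1a). In the gene annotation used for the counts, Pygl and Hif1a begin further upstream, so their windows lie inside the annotated genes. Promoters at those upstream starts are not shown. Capitals mark the core of the HIF-1 motif, ACGTG or GCGTG, on either strand (CACGT or CACGC when read on the other), and the E-box CACGTG overlaps this core.
Pygl: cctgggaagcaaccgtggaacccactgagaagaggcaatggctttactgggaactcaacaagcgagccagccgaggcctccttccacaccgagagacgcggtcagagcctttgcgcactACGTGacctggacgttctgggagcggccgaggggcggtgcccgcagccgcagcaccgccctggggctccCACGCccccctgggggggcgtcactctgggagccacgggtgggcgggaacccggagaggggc
Gpi1: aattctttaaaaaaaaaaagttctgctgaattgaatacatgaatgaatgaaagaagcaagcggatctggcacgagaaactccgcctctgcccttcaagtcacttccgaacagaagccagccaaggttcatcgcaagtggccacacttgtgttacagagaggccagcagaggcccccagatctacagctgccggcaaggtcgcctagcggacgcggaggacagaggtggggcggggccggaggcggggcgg
Hif1a: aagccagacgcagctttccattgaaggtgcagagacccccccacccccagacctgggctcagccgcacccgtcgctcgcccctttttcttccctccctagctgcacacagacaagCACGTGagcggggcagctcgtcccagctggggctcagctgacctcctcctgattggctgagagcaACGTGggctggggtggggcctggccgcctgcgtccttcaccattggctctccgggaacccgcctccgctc
In Pygl the core starts 131 and 62 bases before the start, in Hif1a 135, 134 and 70 bases before it, and in Gpi1 these letters are not in the window. An entry was found for 34 of the 35 genes, all but Slc2a3, and 29 of them (85.3%) held the core, as did 60.1% of 10143 tested genes and 41.5% of all 27025 genes with an entry. The E-box stood in 6 of them (17.6%), in 9.82% of the tested genes and in 6.86% of all genes. A gene with several RefSeq starts had a window for each and was counted where any of these windows held the letters. More starts thus gave a gene more chances of a match. A match is a description of letters and says nothing of binding in these cells.

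Among the glucose transporters, the neuronal-type carrier gene Slc2a3 and the fructose carrier gene Slc2a5, a marker of microglia, had fold changes in opposite directions at an unadjusted p under 0.05, and neither passed the adjusted threshold in either test. Slc2a3 had 7.52, 5.43, 7.44 and 4.45 CPM outside and 10.6, 11.5 and 17.4 CPM inside, and the groups did not overlap. Its log2 fold change was 1.09 (SE 0.31, adjusted p = 0.219 in edgeR and 0.124 in voomWithQualityWeights). Slc2a5 had 765, 867, 976 and 986 CPM outside and 778, 636 and 596 CPM inside. Inside 2 and inside 3 lay below every outside library, and inside 1 lay just above outside 1. Slc2a5 had a log2 fold change of -0.42 (SE 0.13, adjusted p = 0.28 in edgeR and 0.088 in voomWithQualityWeights). Per length, Slc2a5 had the highest mean of the 35 genes outside the graft (837 ± 132 TPM, SD, n = 4). The lactate gene Ldhb was close (810 ± 102 TPM) and lay above Slc2a5 in outside 1 and outside 2. Slc2a1, the basal glucose carrier (84.8 ± 17.3 TPM), and Slc2a3 (2.71 ± 0.678 TPM) were lower. Slc2a1 had 71.5, 93.7, 103 and 106 CPM outside and 111, 142 and 89.3 CPM inside the graft, with overlap and an adjusted p of 0.708. The share of the summed TPM of these carriers that Slc2a5 held was 90.3% to 91.3% outside and 81.6% to 87.3% inside, and that of Slc2a1 was 8.28% to 9.46% outside and 12.1% to 17.7% inside.

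**Figure D2:**
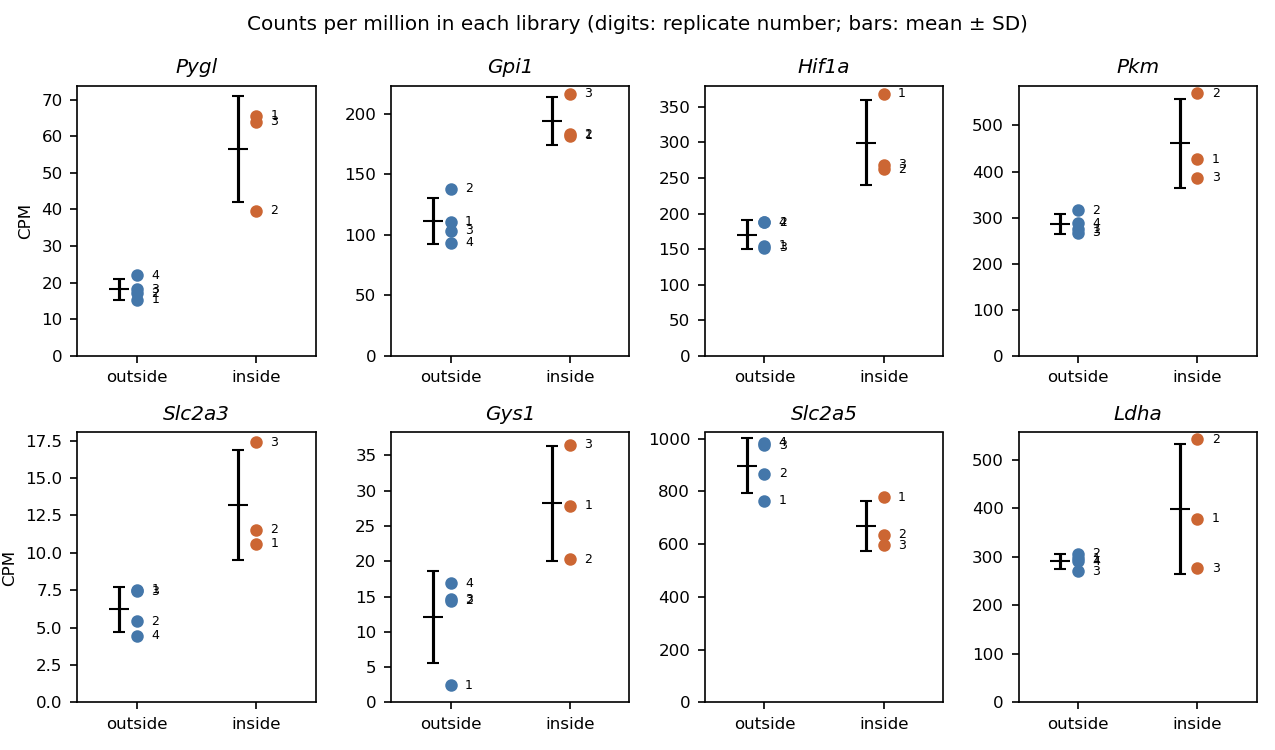
CPM (vertical axis, starting at 0) of 8 of the genes in each library outside and inside the graft. Points are libraries with their replicate number, and the cross and bar beside them are the mean and SD. Pygl, Gpi1, Hif1a, Pkm, Slc2a3 and Gys1 have every inside point above every outside point, while Slc2a5 and Ldha overlap.

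The hexokinases, which trap glucose by phosphorylation, showed the smallest differences. Hk3, the highest of them per length (151 ± 22.5 TPM outside, SD, n = 4), had 166, 154, 185 and 197 CPM outside and 156, 161 and 177 CPM inside the graft. The inside values lay within the outside range. The log2 fold changes of Hk1, Hk2 and Hk3 were -0.09, -0.12 and -0.09, with 95% intervals of -0.66 to 0.48, -0.41 to 0.17 and -0.36 to 0.17 and adjusted p-values of 0.958, 0.862 and 0.889. The intervals of all 3 lay within 1 on the log2 scale, so a 2-fold change lay outside them. Hk3 held 55.2% to 63.8% of the hexokinase TPM outside and 59.5% to 60.8% inside the graft.

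In upper glycolysis, Gpi1, which turns glucose 6-phosphate into fructose 6-phosphate, stood apart from the rest. Gpi1 (ENSMUSG00000036427.5) lies on the minus strand of chr7 from 34201330 to 34230336. It had 111, 138, 104 and 93.4 CPM outside and 182, 183 and 217 CPM inside the graft, with no overlap. Its log2 fold change was 0.80 (SE 0.15), a 1.74-fold higher level, with an adjusted p of 0.0746 in edgeR and 0.0367 in voomWithQualityWeights. The call of voomWithQualityWeights was kept without outside 2 (0.0211) or inside 2 (0.0265) and lost without outside 1 (0.0517), outside 3 (0.231), outside 4 (0.154), inside 1 (0.0511) or inside 3 (0.0651). Of the 75-base words in the transcripts of Gpi1, 10.8% also occur in other genes. Gm26762 is among these genes, and its exons overlap those of Gpi1 on the other strand. Reads that map to several places were not counted.

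Tpi1, which interconverts the triose phosphates, had 142, 185, 149 and 132 CPM outside and 205, 293 and 165 CPM inside the graft. Inside 3 lay within the outside range. Its log2 fold change was 0.54 (SE 0.19, adjusted p = 0.357). Aldoa, the main aldolase and the highest gene of this step per length (363.2 ± 34.27 TPM outside, SD, n = 4), had 409, 493, 422 and 385 CPM outside and 507, 710.1 and 429 CPM inside. Again inside 3 lay among the outside libraries, and the log2 fold change was 0.36 (SE 0.17, adjusted p = 0.546). Pfkl, the liver-type phosphofructokinase, had a log2 fold change of 0.30 with overlapping groups and held 90.7% to 96.4% of the phosphofructokinase TPM outside and 93.8% to 94.9% inside the graft. The minor forms Pfkm (log2 fold change -0.18), Pfkp (1.43) and Aldoc (0.89) had at most 12.5, 8.89 and 1.31 CPM in any library, and their 95% intervals spanned 0, from -0.74 to 3.60 for Pfkp.

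Pfkfb3 and Pfkfb4 encode enzymes that set the level of fructose 2,6-bisphosphate, the activator of phosphofructokinase. Pfkfb3 had 116, 83.8, 114 and 118 CPM outside and 137, 139 and 132 CPM inside the graft. The inside libraries were close together and all above the outside ones, of which outside 2 was the lowest. The log2 fold change was 0.33 (SE 0.14, adjusted p = 0.471). Pfkfb4, the higher of the 2 per length outside the graft (58.5 ± 3.52 TPM, SD, n = 4), had 92.8, 88.6, 93.2 and 86.4 CPM outside and 94.6, 89.3 and 114 CPM inside (log2 fold change 0.14, adjusted p = 0.81), with inside 2 within the outside range.

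All 5 genes of lower glycolysis had a log2 fold change above 0. Pkm, the pyruvate kinase of most tissues (ENSMUSG00000032294.17, plus strand of chr9 from 59656368 to 59679375), had 275, 316, 268 and 288 CPM outside and 427, 570.4 and 387 CPM inside the graft, and the groups did not overlap. Its log2 fold change was 0.69 (SE 0.14), a 1.61-fold higher level, with an adjusted p of 0.0934 in edgeR and 0.0456 in voomWithQualityWeights. The call of voomWithQualityWeights was kept without inside 2 (0.0449) or inside 3 (0.0471) and lost without outside 1 (0.0684), outside 2 (0.0545), outside 3 (0.268), outside 4 (0.177) or inside 1 (0.0748). Counts per gene do not separate the M1 and M2 splice forms of Pkm. Of the 75-base words in the transcripts of Pkm, 17.8% also occur in other genes, so its level is uncertain too. Gm49759 is among these genes, and its exons overlap those of Pkm on the same strand.

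Pgk1 and Eno1, a kinase and the enolase of the lower pathway, were each at an unadjusted p under 0.05. Pgk1 had 22.6, 29.7, 25.2 and 24.7 CPM outside and 39.8, 43.4 and 28.6 CPM inside the graft (log2 fold change 0.54, SE 0.19, adjusted p = 0.344). Eno1 had 238, 279, 265 and 254 CPM outside and 346, 379.6 and 273 CPM inside (log2 fold change 0.36, SE 0.13, adjusted p = 0.363). In both, inside 1 and inside 2 lay above the outside libraries and inside 3 lay among them. Gapdh, the highest gene of this step per length (265.3 ± 20.98 TPM outside, SD, n = 4), had 368, 397, 319 and 310.4 CPM outside and 431, 528 and 356 CPM inside, and Gapdh followed the same order with a log2 fold change of 0.33 (SE 0.15, adjusted p = 0.53). Pgam1 had a log2 fold change of 0.30 (adjusted p = 0.721). Of the 75-base words in their transcripts, 52.8% in Pgk1, 34.9% in Pgam1, 23.0% in Eno1 and 22.6% in Gapdh occur in other genes. Reads from these stretches were left out, so the levels of these genes are uncertain. Exons of 14 of the 35 genes overlap another gene, strand was not used in counting, and the name Aldoa holds 2 gene identifiers.

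Of the lactate genes, Ldha, the subunit that favours lactate, had 297, 306, 269.7 and 291 CPM outside and 378, 542 and 276 CPM inside the graft. Inside 1 and inside 2 were above the outside range and inside 3 was within it. The log2 fold change was 0.45 (SE 0.19, adjusted p = 0.48). Ldhb, the subunit that favours pyruvate and the highest lactate gene per length (809.6 ± 102 TPM outside, SD, n = 4), had 353, 407, 399 and 448 CPM outside and 334, 362.9 and 325 CPM inside (log2 fold change -0.24, SE 0.11, adjusted p = 0.552). Only inside 2 lay within the outside range. Ldha made up 28.5%, 26.3%, 24.3% and 23.6% of the joint TPM of both subunits outside and 34.9%, 41.5% and 28.7% inside the graft. The shares of inside 3 and outside 1 nearly touched. Of the 75-base words in the transcripts, 12.6% in Ldhb and 2.69% in Ldha also occur in other genes, so the size of these shares is uncertain. The lactate exporter gene Slc16a3 had 63.9, 71.4, 70.9 and 71.2 CPM outside and 90.6, 146 and 59.1 CPM inside, with inside 2 far above and inside 3 below the outside libraries (log2 fold change 0.51, adjusted p = 0.566). Slc16a1, the carrier for lactate in both directions, had a log2 fold change of 0.26 (adjusted p = 0.779).

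The pyruvate dehydrogenase kinases did not share a direction. Pdk1, the highest of them per length (54.7 to 78.2 TPM in the 4 outside libraries), had 144, 139.7, 183 and 162 CPM outside and 165, 158 and 104 CPM inside the graft, where inside 3 was the lowest of all libraries (log2 fold change -0.14, adjusted p = 0.878). Pdk2 had 39.0, 29.8, 22.2 and 24.3 CPM outside and 21.9, 22.2 and 19.8 CPM inside, so that the inside libraries were all lower, but inside 2 and outside 3 were 22.24 and 22.25 CPM (log2 fold change -0.43, SE 0.22, adjusted p = 0.581). Pdk3 had 16.8, 18.0, 25.4 and 24.3 CPM outside and 24.7, 29.6 and 30.7 CPM inside (log2 fold change 0.42, SE 0.21, adjusted p = 0.566). Pdk3 made up 17.5% to 24.97% of the joint TPM of the 3 kinases outside and 25.5% to 37.9% inside the graft.

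**Figure D3:**
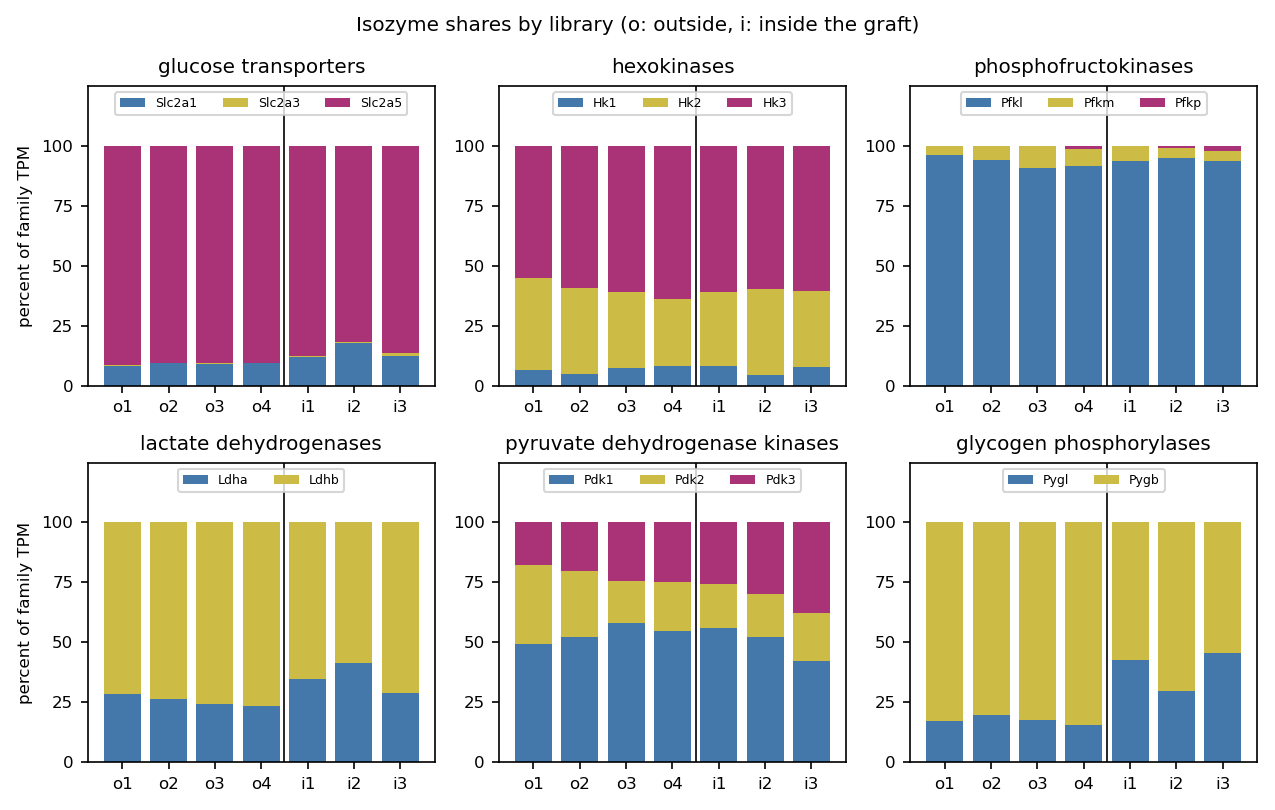
Share of each isozyme in the summed TPM of its family (vertical axis, percent) in outside 1 to 4 (o1 to o4) and inside 1 to 3 (i1 to i3), for 6 families. The share of Pygl, of Ldha, of Slc2a1 and of Pdk3 is higher in every inside library than in every outside library, and the hexokinase and phosphofructokinase shares overlap.

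Hif1a (ENSMUSG00000021109.13) lies on the plus strand of chr12 from 73901375 to 73947530. It had 155, 188, 152 and 188 CPM outside and 368, 263 and 269 CPM inside the graft. The groups did not overlap, and inside 1 was the highest library. Its log2 fold change was 0.81 (SE 0.15), a 1.76-fold higher level, with an adjusted p of 0.0746 in edgeR and 0.0398 in voomWithQualityWeights. The call of voomWithQualityWeights held without inside 2 (0.0261) and was lost without each of the other libraries (0.0533 to 0.231). Exons of Hif1a overlap those of the protein-coding gene Gm49321 on the same strand. Hif1a is regulated largely through the stability of its protein, which was not measured. Of the 9 partners and oxygen sensors of HIF, 8 were tested, 6 of them with a log2 fold change above 0, and Egln3, a prolyl hydroxylase that is itself a HIF target, reached an unadjusted p under 0.05 (1.74, SE 0.52, adjusted p = 0.249), with 4.27, 8.85, 1.73 and 4.17 CPM outside and 17.9, 22.1 and 7.58 CPM inside. Inside 3 was below outside 2.

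HIF-1 targets outside glycolysis had fold changes in both directions. Of 20 such genes, 18 were tested, 11 with a log2 fold change above 0 and 7 below it, with a median of 0.06 and a range from -2.13 to 1.94. At an unadjusted p under 0.05, 2 were higher and 1 was lower, and 0 were called at an adjusted p of 0.05 by either test. Ero1l (1.11, adjusted p = 0.298), which forms disulfide bonds in the endoplasmic reticulum, was among the higher genes, and Mxi1 (-0.43, adjusted p = 0.436), an antagonist of Myc, was lower.

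Across the 10 genes of the main route from Gpi1 to Ldha (Gpi1, Pfkl, Aldoa, Tpi1, Gapdh, Pgk1, Pgam1, Eno1, Pkm and Ldha), the inside libraries differed among themselves. Inside 2 was the highest and inside 3 the lowest inside library for 9 of the 10 genes, Gpi1 being the exception. The median of the 10 log2 ratios to the outside mean was 0.40 in inside 1, 0.72 in inside 2 and 0.05 in inside 3, beside -0.08, 0.17, -0.03 and -0.08 in outside 1 to 4. Pygl, Gys1 and Slc2a3 had another order, with ratios to the outside mean of 3.61, 2.18 and 3.52 for Pygl, 2.31, 1.68 and 3.03 for Gys1 and 1.71, 1.86 and 2.80 for Slc2a3 in inside 1 to 3. Without inside 2 the median log2 fold change of the 35 genes was 0.21, and without inside 3 it was 0.44.

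**Figure D4:**
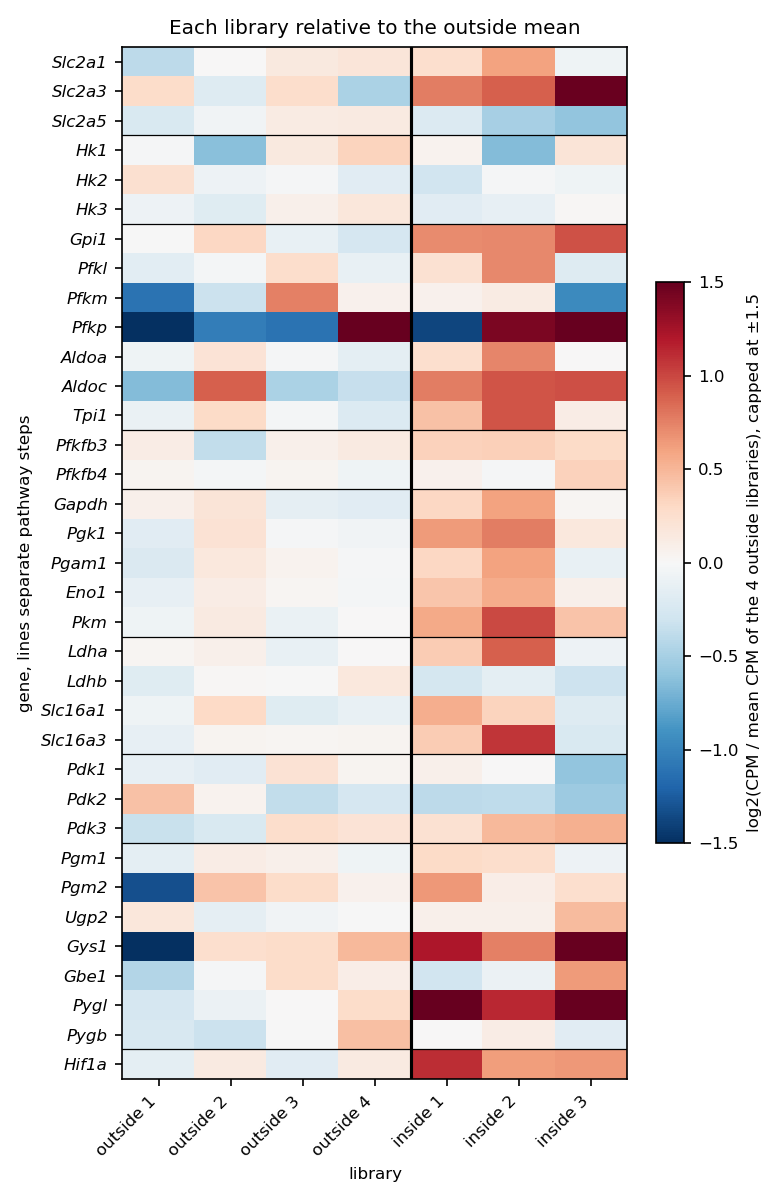
Log2 ratio of CPM to the mean of the 4 outside libraries (colour, capped at 1.5 in either direction) for each of the 35 genes in pathway order and each library. For 9 of the 10 genes of the main route inside 2 is the reddest of the inside columns, inside 3 is closer to white (median 0.05), and Pygl, Gys1, Hif1a and Slc2a3 are red in all inside columns.

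The libraries also differed in markers of other cells. The 8 neutrophil markers summed to 0.640, 0.311, 297 and 18.1 CPM in outside 1 to 4 and to 6503, 648.5 and 13727 CPM in inside 1 to 3, and of the 6 that were tested 5 were higher inside the graft at an unadjusted p under 0.05. Their defining marker Ly6g had 0 counts in 3 of 4 outside libraries and 8.13, 2.22 and 17.4 CPM inside. The 10 monocyte markers summed to between 9.87 and 41.1 CPM outside and to 753, 94.3 and 1525 CPM inside, with 9 of 10 higher, and Ly6c2 had 0 counts in outside 1 and outside 2. The 10 markers of border-associated macrophages summed to between 10.8 and 35.8 CPM outside and to 141, 35.4 and 159 CPM inside, with 8 of 8 tested genes higher. The 8 proliferation genes, all higher inside, summed to between 9.17 and 37.7 CPM outside and to 119, 88.2 and 142 CPM inside. At an adjusted p under 0.05, edgeR called 0 genes of these lists. At that threshold voomWithQualityWeights called 2 proliferation genes, 1 gene of border-associated macrophages and 0 neutrophil or monocyte markers. The study's methods list stains for Ly6G and Ly6C among the lineage markers of the gate.

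Of the inside libraries, inside 2 had the lowest levels of Pygl and of Gys1 and the lowest neutrophil and monocyte sums. Inside 3 had the highest sums and the highest Gys1, while Pygl was 65.6 CPM in inside 1 and 64.0 CPM in inside 3. In contrast, 9 of the 10 genes from Gpi1 to Ldha had inside 2 as the highest. Pygl was 39.7 CPM in inside 2 beside a neutrophil sum of 648.5 CPM, and 18.3 CPM in outside 3 beside a sum of 297 CPM. Without inside 3, the library with the highest sums, the log2 fold change was 1.53 for Pygl, 0.99 for Gys1, 0.71 for Gpi1, 0.89 for Hif1a and 0.80 for Pkm. Inside 1, with a neutrophil sum of 6503 CPM, remained in that fit. Without inside 2, which had the lowest inside sums, the values for these genes were 1.83, 1.41, 0.84, 0.90 and 0.51. The part of other cells in these differences was not tested.

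**Figure D5:**
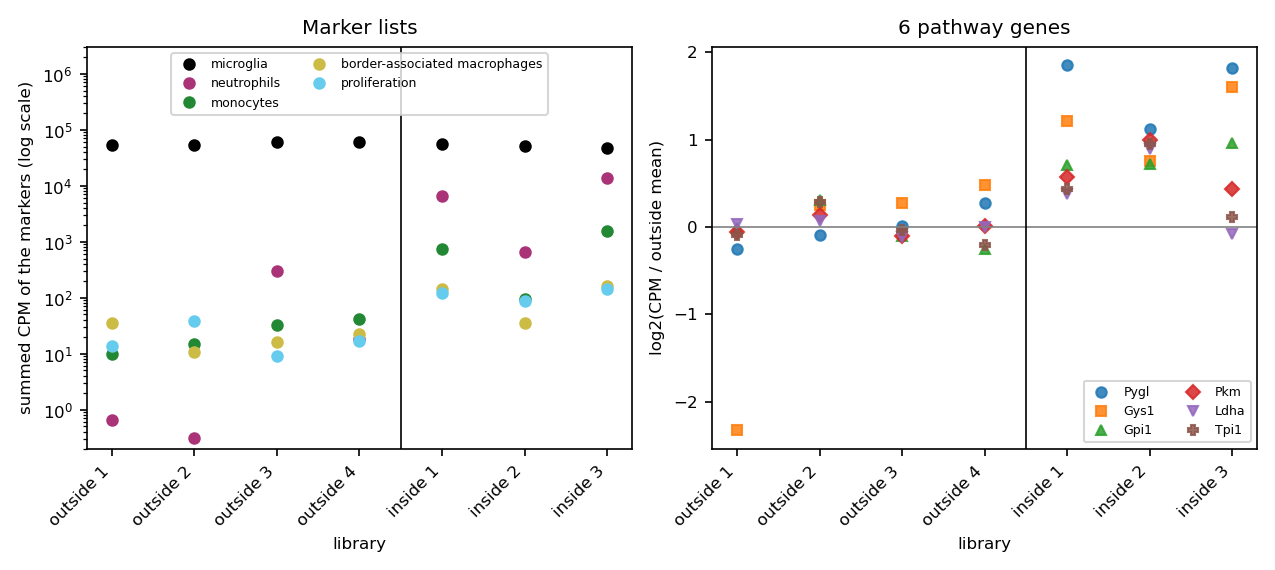
Left, summed CPM of 5 marker lists in each library (log scale). Right, log2 ratio of CPM to the outside mean for 6 of the genes in the same libraries. In outside 4 the neutrophil point (18.1 CPM) lies behind others. Neutrophil and monocyte sums are lowest of the inside libraries in inside 2, where Pkm, Ldha and Tpi1 have their highest inside values and Pygl and Gys1 their lowest.

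Markers of nonmyeloid cells went in both directions, with 2 of 4 tested endothelial, 3 of 6 astrocyte, 1 of 2 neuronal, 2 of 5 oligodendrocyte genes and the 1 erythroid gene higher inside the graft by their fold change. At an unadjusted edgeR p under 0.05, 1 endothelial, 1 astrocyte and 1 oligodendrocyte gene were lower and 1 astrocyte gene was higher. The sums were 19.2 to 25.7 CPM inside and 28.1 to 47.6 CPM outside for endothelial cells (without Slc2a1), 248 to 298 and 326 to 351 CPM for astrocytes (without Aldoc), 3.20 to 6.07 and 3.25 to 11.4 CPM for neurons, 156 to 161 and 156 to 165 CPM for oligodendrocytes, and 0.903 to 1.56 and 0.267 to 1.78 CPM for erythroid cells. Of the 10 immediate early genes linked to tissue dissociation, 9 were tested and 5 had a log2 fold change above 0, with a median of 0.64 over the 9. Of the 9, 2 were higher at an unadjusted p under 0.05, each with all inside libraries above all outside ones, and 0 were lower, while the list summed to 505 to 666 CPM inside and 486 to 640.3 CPM outside.

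Summed TPM was higher inside the graft for some steps and lower for others. In means ± SD (n = 3 inside, n = 4 outside), it was 872 ± 162 inside and 698 ± 73.0 outside for upper glycolysis, 858 ± 123 and 678 ± 39.4 for lower glycolysis, 207 ± 31.0 and 173 ± 29.0 for glycogen, and 113 ± 11.6 and 104 ± 10.5 for the regulators Pfkfb3 and Pfkfb4. It was 680.7 ± 102 inside and 924.5 ± 148 outside for the glucose carriers, mostly Slc2a5, 219 ± 20.6 and 252 ± 27.4 for hexokinases, 1067 ± 127 and 1152 ± 109 for the lactate genes, and 106 ± 9.83 and 119 ± 12.9 for the pyruvate dehydrogenase kinases. Hif1a alone had 150.3 ± 35.8 and 91.3 ± 10.8 TPM. Over all 35 genes the sums were 4273 ± 389 inside and 4191 ± 350 outside, which in TPM differed by less than the spread between libraries. Small differences between these sums depend on the scaling, as TPM is scaled to each library's own length-scaled total and has no TMM factor. Ldha had means of 350 TPM inside and 277 TPM outside, but 399 and 291 CPM. Ldhb had 636 and 810 TPM, but 340 and 402 CPM. Sums by step were not computed with TMM.

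Related genes outside the 35 showed a mixed picture, and none was called at an adjusted p of 0.05 by either test. Of 28 other genes of glycolysis and transport, 18 were tested, 12 with a log2 fold change above 0. Slc2a6, a lysosomal hexose carrier, had 3.74, 6.09, 0.845 and 5.18 CPM outside and 14.99, 20.7 and 11.2 CPM inside the graft (1.98, SE 0.53, adjusted p = 0.186), and the groups did not overlap. Adpgk, an ADP-dependent glucokinase, had 28.1, 29.9, 36.7 and 41.4 CPM outside and 85.3, 31.2 and 108 CPM inside (1.14, SE 0.34, adjusted p = 0.25). Gpd2, the mitochondrial glycerol phosphate dehydrogenase, had a log2 fold change of 1.04 (SE 0.36, adjusted p = 0.332), with every inside library above every outside library, and the cytosolic form Gpd1, which is the fourth gene of this list past an unadjusted p of 0.05, had one of -0.82. Of 16 other glycogen genes, 14 were tested, 5 with a log2 fold change above 0 and 9 below it, and 0 reached an unadjusted p under 0.05 in edgeR.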

How the data were processed

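Bulk RNA-seq of sorted microglia was analysed, 3 libraries inside and 4 outside the graft, grouped by their labels. Each library was made from 300 pg of RNA with 13 cycles of long-distance PCR and read as single reads of 75 cycles. Reads were demultiplexed (bcl2fastq 2.18) and aligned (STAR 2.7.2a) by the authors to GRCm38.p6. The deposited values are unnormalized counts for each gene name of GENCODE M21, made with featureCounts 1.6.2. By the header of the table, strand was not used and reads that map to several places were left out. Since PCR copies were not told apart by molecular identifiers, the totals (18644807 to 25882122 counts) overstate the precision.

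The members and all lists were chosen with earlier results of these data known. From the counts, genes were filtered with filterByExpr (15257 kept) and normalized with TMM. CPM was computed with the TMM factors and TPM without them. edgeR 4.0.16 (glmQLFit and glmQLFTest, legacy=TRUE) gave the main fold changes, standard errors implied by the F statistic and p-values, and limma 3.58.1 (voomWithQualityWeights), the test of the study, ran beside it in R 4.3.3. Both used Benjamini-Hochberg adjustment over all genes and a threshold of 0.05, with the study's 0.01 as an alternative. DESeq2 1.42.0, other normalizations and filters, a replicate block and each library left out were the other alternatives. Values per library are given for members with an unadjusted edgeR p under 0.05 and for the highest member per step by TPM outside the graft, with a few more for the isozyme comparisons chosen after their values were seen. From each list at most 3 genes with the smallest p are named, apart from Gpd1, and 1 gene that met this rule is not reported here. From the lists of cell markers only Ly6g and Ly6c2 are named, chosen after their values were seen. On simulated counts for this comparison (5 sets, 15257 genes, 200 changed), 34.3% of the 2-fold and 68.5% of the 4-fold changes were recovered by edgeR at the threshold of 0.05, with 6.8 false calls per set. voomWithQualityWeights found 32.3% and 64.3%, with 5.6 false calls per set. Pairs of libraries of the same group differed by far more than counting noise (lowest ratio of chi-square to its degrees of freedom 16.6).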

Additional observations from a re-analysis of the deposited data

Results flagged for a closer look

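In 4 of the 35 genes, 1 of the 4 outside libraries stood apart from the other 3 by Dixon's criterion. For normally distributed values, chance gives about 1 in 20, or 1.75 of 35. The share over all genes tested was not computed, so it is not known whether 4 is many for these libraries. Pfkp and Aldoc had few counts outside the graft (6 to 123 and 8 to 28). Pfkp, the platelet-type phosphofructokinase, had 4.98 CPM in outside 4 and 0.320 to 0.845 CPM in the others. Aldoc, the brain-type aldolase, had 1.25 CPM in outside 2 and 0.427 to 0.526 CPM in the others. Pfkfb3 had 83.8 CPM in outside 2 and 114 to 118 CPM in the others. Slc16a3 had 63.9 CPM in outside 1 and 70.9 to 71.4 CPM in the others. Groups of 3 were not tested.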

How the results depend on the processing

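Counts of calls depended strongly on the filter, the test and single libraries. The edgeR count of all genes (15) and of the 35 (1) was 366 and 4 with no filter beyond 1 count, 92 and 4 with at least 10 counts in every library, 420 and 5 with DESeq2, and 0 and 0 at an adjusted p of 0.01. The voomWithQualityWeights count (75 and 4) was 225 of all genes with no filter, 211 with at least 10 counts in every library, 10 and 1 without quality weights, and 3 and 0 at 0.01. With each library left out in turn, edgeR called 0 (without inside 3 or outside 4) to 73 genes (without inside 2) and 0 to 1 of the 35, and voomWithQualityWeights called 1 (without outside 3 or outside 4) to 207 genes and 0 to 4 of the 35. The number of the 35 at an unadjusted p under 0.05 (12) ran from 7 without inside 1 to 17 without inside 3. The share of all genes passing was computed only for the main fit (9.55%), so these numbers lack a background. The median log2 fold change of the 35 ran from 0.21 without inside 2 to 0.44 without inside 3. The labels do not say whether replicate numbers pair the libraries. Deviations of same-numbered libraries correlated at -0.04, 0.09 and 0.07, and those of other pairs across the groups at -0.12 to 0.06. Correlations this small from so few libraries cannot decide whether they are paired. With the replicate block, without outside 4, edgeR called 43 genes and voomWithQualityWeights 265, among them 1 and 4 of the 35.

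Of 453 fold changes under alternatives, 12 changed sign, all of genes with an adjusted p over 0.85. Pygb was above 0 with RLE size factors (0.00043), DESeq2 (0.00046) and the replicate block (0.17), and Hk1 with the block (0.033). With 1 library left out, Pygb ran from -0.11 to 0.17 (above 0 without outside 4 or inside 3), Hk1 from -0.26 to 0.13 (above 0 without outside 4, 0.042, or inside 2), Pfkm from -0.41 to 0.20 (above 0 without outside 3 or inside 3), Pdk1 from -0.26 to 0.040 (above 0 without inside 3) and Gbe1 from -0.18 (without inside 3) to 0.32. Without length scaling, the difference in the share of Pfkl was -0.37 percentage points. The cause of these changes was not tested. At this depth, Aldoc and Pfkp had fewer than 10 counts in 1 library each, and their intervals allow changes above 4-fold.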

Other observations

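The pentose phosphate pathway, which branches off at glucose 6-phosphate to make NADPH and ribose phosphates, had genes with fold changes in both directions. Of its 7 genes, all tested, 5 had a log2 fold change above 0, 4 (3 higher, 1 lower) had an unadjusted edgeR p under 0.05, beside 9.55% of all genes (5.76% higher, 3.79% lower), and 0 were called by either test at an adjusted p of 0.05. G6pdx, the entry enzyme, had 77.9, 69.2, 78.3 and 84.1 CPM outside and 120.4, 108 and 107 CPM inside the graft (log2 fold change 0.53, SE 0.12, adjusted p = 0.112 in edgeR). Tkt had 149, 126, 122 and 151 CPM outside and 176, 174 and 213 CPM inside (0.46, SE 0.13, adjusted p = 0.22). In both genes the groups did not overlap. Rpia, the ribose phosphate isomerase, had 10.2, 8.18, 9.41 and 9.64 CPM outside and 5.38, 4.84 and 6.40 CPM inside (-0.76, SE 0.28, adjusted p = 0.388), so that all inside libraries were lower.

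Genes for the entry of pyruvate into mitochondria had fold changes in both directions. All 10, the carrier and pyruvate dehydrogenase subunits among them, were tested, 4 with a log2 fold change above 0 and 6 below it, with a median of -0.05, and 0 reached an unadjusted p under 0.05 in edgeR.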
